A study of Mus musculus with 12 samples.

Results

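The genes described here are 35 chaperone and protein folding stress genes, taken by symbol from the 23991 gene names in the deposited FPKM tables of mouse CD4+ T cells. All 35 were found, and none was listed more than once. By the compartment that their products serve, 24 belong to the endoplasmic reticulum (ER), 8 are cytosolic heat shock chaperones, 2 are mitochondrial chaperones and 1 is the heat shock transcription factor Hsf1. The ER class includes the transcription factor Xbp1. FPKM is the number of fragments scaled for transcript length and library size. The filter for testing, at least 1 FPKM in at least 3 of the 12 libraries, was passed by 10126 genes and by 32 members, and Ern1, Hspa1a and Hspa1b fell below it.

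CD4+ T cells were isolated by magnetic negative selection from the spleen or lymph nodes of male C57BL/6 mice 8 to 10 weeks old. The mice were wild type (WT) or Adcy10-/-, which lack the gene for soluble adenylyl cyclase, an enzyme that makes cAMP inside the cell and that the series title links to type 17 inflammation. The described culture ran for 18 hours on plate-bound antibody to CD3 (10 µg/mL), with antibody to CD28 at 2 µg/mL and antibodies to IFNγ and IL-4 at 1 µg/mL each. Its cytokines were IL-6 at 25 ng/mL and both IL-1β and IL-23 at 20 ng/mL. Each genotype was cultured in a medium called baseline here or with polarizing cytokines, and the 4 groups held 3 libraries each. Sample titles name Th17 in all 4 groups and add the word plus in the groups called cytokines here. The labels do not say which additions the baseline medium already held, whether the deletion reaches every tissue, or whether libraries came from separate animals. The p-values therefore measure only the spread between these libraries.

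Proteins made for secretion or for the cell surface fold in the ER. When unfolded proteins collect there, the sensors IRE1, PERK and ATF6 start the unfolded protein response, which raises ER chaperones, disulfide isomerases and the machinery that removes misfolded proteins. IRE1 acts by splicing the mRNA of Xbp1, a step that gene level FPKM does not show. Heat shock factor 1 drives the corresponding cytosolic and mitochondrial chaperones, and T cells enlarge both systems when they are activated and begin to grow.

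The ER stress element, through which ATF6 and XBP1 are known to act, was looked for in the promoters because the members were compared by compartment. RefSeq promoter windows of 300 bases (assembly GRCm38.p6, which differs from the mm9 build of the expression files) were matched by symbol for 28 of the 35 genes. No window was matched for Hyou1, Hsf1, Manf, Atf6, Hsp90aa1, Hsp90ab1 or Hspa8. The following stretches, written on the strand of each gene, have the fixed letters of the matched element in capitals. The first 6 are ER stress elements, the seventh is the shorter type II element, and the last 2 are a heat shock element.
Hspa5, chr2:34772013-34772055, + strand: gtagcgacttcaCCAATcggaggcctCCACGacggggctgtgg
Hsp90b1, chr10:86705626-86705668, - strand: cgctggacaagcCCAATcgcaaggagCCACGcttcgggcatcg
Hsp90b1, chr10:86705521-86705563, - strand: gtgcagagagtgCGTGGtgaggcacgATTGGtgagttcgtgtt
Calr, chr8:84847063-84847105, - strand: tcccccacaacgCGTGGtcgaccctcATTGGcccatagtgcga
Pdia6, chr12:17266479-17266521, + strand: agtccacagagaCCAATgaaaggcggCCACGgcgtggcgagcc
Creld2, chr15:88819508-88819550, + strand: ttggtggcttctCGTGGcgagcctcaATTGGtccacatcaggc
Herpud1, chr8:94386365-94386399, + strand: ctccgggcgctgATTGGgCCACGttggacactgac
Hspd1, chr1:55088052-55088088, - strand: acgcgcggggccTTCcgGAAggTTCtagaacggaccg
Hspe1, chr1:55088052-55088088, + strand: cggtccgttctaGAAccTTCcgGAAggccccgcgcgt

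The ER stress element, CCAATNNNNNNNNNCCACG on either strand, was present in 39 of the 32851 promoter windows (0.119%). It was present in 8 of the 21 ER members with a window, namely Hspa5, Hsp90b1, Calr, Canx, Pdia6, Dnajc3, Creld2 and Syvn1, and in 0 of 5 cytosolic members. The share counts windows, of which a gene can have more than 1, while members are counted as genes. ER members were listed as genes of the response that this element serves. Its presence in them was therefore likely beforehand and is not a separate result. In the printed stretches the matched letters began 65 bases before the annotated start for Hspa5, 212 and 107 for the 2 matches of Hsp90b1, 162 for Calr, 98 for Pdia6 and 126 for Creld2. The type II element, ATTGGNCCACG, was in 12 windows (0.0365%), 2 of them those of Herpud1, 52 bases before the start, and Dnajb11. No member window held both types. The letters TGACGTGG of the unfolded protein response element occurred in 0.676% of windows and the cAMP response element TGACGTCA in 1.79%, and neither occurred in a window of the 28 members.

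The heat shock element, searched as GAANNTTCNNGAA on both strands, was in 0.603% of windows and in 3 members. Hspd1 and Hspe1, which encode the mitochondrial chaperonin and its cochaperonin, are transcribed away from each other, and their lines above are the same bases read from opposite strands. A second match, on the other strand, overlaps the first. The third was Hsph1, a cytosolic nucleotide exchange factor. STAT-type letters, TTCNNNGAA, were in 8.3% of windows and, among members, in that of Eif2ak3 only. These matches describe letters in a window and not bound sites.

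The cytosolic chaperones held the top of the range of levels. Over the 12 libraries, median FPKM was 2409 for Hsp90ab1, a constitutive HSP90, and 2399 for Hspa8, the constitutive HSP70, which placed them 36th and 37th among all genes. Their ranges, 2185 to 2664 and 1938 to 2712 FPKM, overlapped, so these neighbours were not separated. Next came Hspe1 (601.7), Calr (536), Hspd1 (456), Hsp90aa1 (382) and Hspa5 (329). Calr encodes calreticulin, a chaperone of glycoproteins, and Hspa5 encodes BiP, the main ER HSP70. Calr stayed within 507 to 576 FPKM and lay above every library of Hsp90aa1 and Hspa5. The ranges of Hspd1 and Hsp90aa1 overlapped, but within each library Hspd1 was the higher of the pair.

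Isomerases and the translocon subunit Sec61b had medians of 53.7 to 260.5 FPKM. The sensors were scarce, with medians of 5.60 FPKM for Atf6, 3.02 for Eif2ak3, which encodes PERK, and 0.785 for Ern1, which encodes IRE1. Stress-inducible HSP70 was lowest, at 0.575 FPKM for Hspa1b and 0.398 for Hspa1a. Among tested members the highest library exceeded the lowest by 1.89-fold for Xbp1 and 1.81-fold for Atf6, the widest ranges, and by 1.08-fold for Pdia3, the narrowest.

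**Figure D1:**
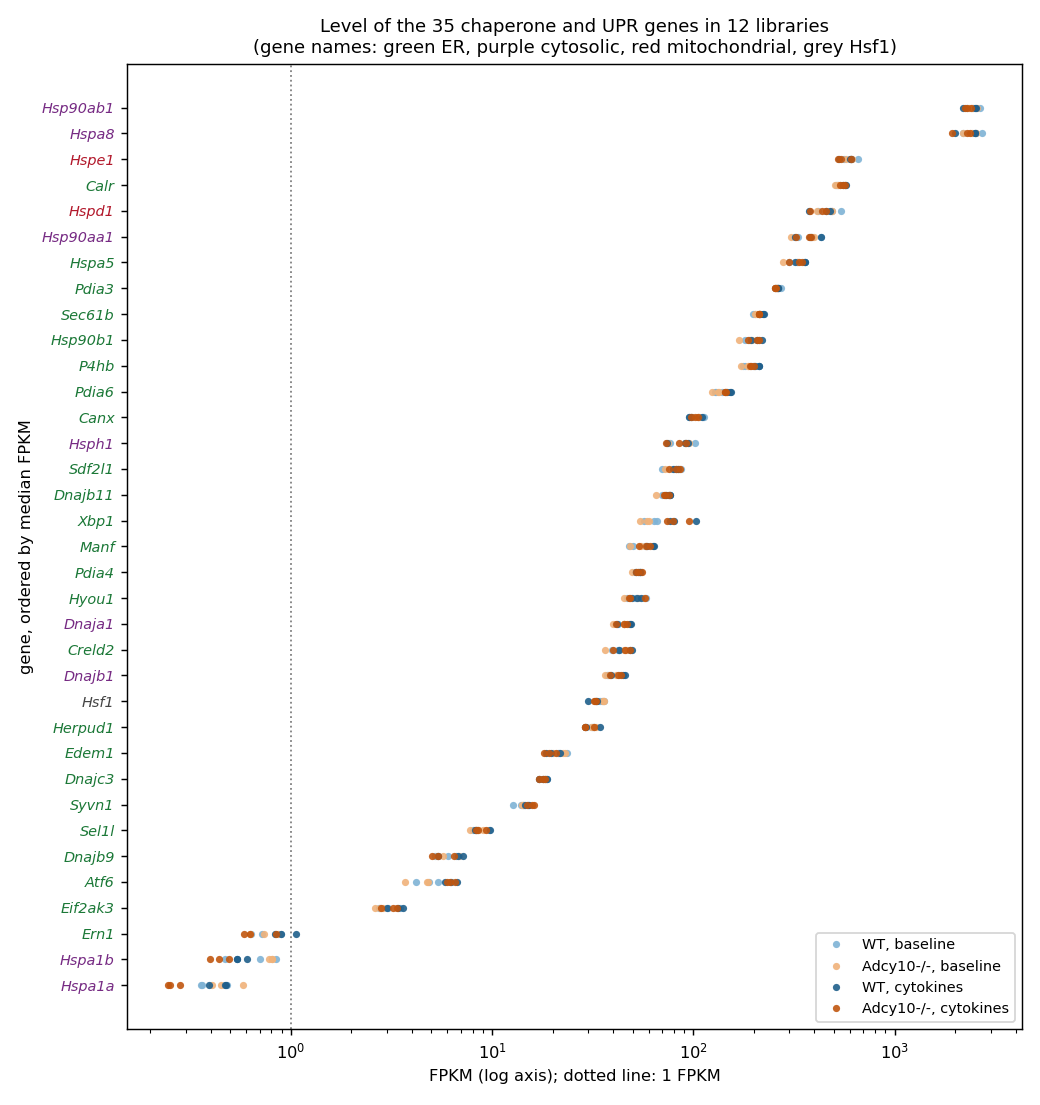
Level of each of the 35 genes, in FPKM on a log axis, with 1 point per library coloured by group and genes ordered by median. Hsp90ab1 and Hspa8 stand highest, at medians of 2409 and 2399 FPKM, the ER chaperones span the middle, and Ern1, Hspa1a and Hspa1b lie near or under the dotted line at 1 FPKM.

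The first comparison asked how the cytokines changed these genes in WT cells. Xbp1, the transcription factor of the IRE1 arm, and Pdia6, an ER disulfide isomerase, rose, and no member fell. These were 2 of the 32 tested members, while 2.65% of all tested genes rose and 2.28% fell at an adjusted p under 0.05. The median change on the log2(FPKM + 1) scale was 0.04 over the members and -0.01 over all tested genes. By compartment it was 0.09 for the 23 ER members, -0.03 for the 6 cytosolic and -0.11 for the 2 mitochondrial members. Same-numbered libraries proved to vary together, and with the replicate number as a block 7 members rose and 1 fell, against 7.41% and 7.43% of all genes. A block made within each genotype, added after the data were seen, gave the same counts, against 8.05% and 7.5%. Without the 4 libraries numbered 1, also an added fit, 1 member rose and 0 fell, against 2.23% and 1.51% of the 9996 genes tested there.

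Xbp1 read 63.7, 56.7 and 66.1 FPKM in WT baseline libraries 1 to 3, and 103, 76.5 and 80.2 FPKM with cytokines. The groups did not overlap, and the highest value was library 1 with cytokines. The log2 change was 0.46 (SE 0.12, adjusted p = 0.0471), a 1.38-fold rise on the FPKM + 1 scale. This call was near the threshold. With 1 library left out at a time it held in 4 of 12 fits and was lost without any of the WT baseline libraries, Adcy10-/- baseline libraries 2 or 3, WT cytokine libraries 1 or 3, or Adcy10-/- cytokine library 3 (highest adjusted p = 0.199). Leaving out the 4 libraries numbered 1 gave 0.35, with an adjusted p of 0.0463.

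Atf6, the membrane-bound sensor that becomes a transcription factor when cleaved, read 4.18, 4.84 and 5.38 FPKM in WT baseline and 5.83, 6.23 and 6.68 FPKM with cytokines. All 3 cytokine libraries lay above all 3 baseline libraries. The log2 change of 0.32 (SE 0.10) did not pass, with an adjusted p of 0.0930, and passed with the block at an adjusted p of 0.00760. Eif2ak3 changed by 0.09 (95% interval -0.10 to 0.29) and did not pass. Ern1, untested in the same fit, averaged 0.748 ± 0.131 FPKM at baseline and 0.931 ± 0.121 with cytokines (SD, n = 3), and the groups overlapped.

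Among the disulfide isomerases, which form and rearrange disulfide bonds, Pdia6 passed in WT cells, P4hb passed only with the block, and Pdia3 and Pdia4 passed in neither fit. Pdia6 read 128, 130.2 and 139 FPKM in WT baseline libraries and 147, 153 and 152 FPKM with cytokines, without overlap. Its log2 change was 0.18 (SE 0.05, adjusted p = 0.0474), and the adjusted p was 0.00793 with the block. Leaving out 1 library ended the call in 10 of 12 fits, all but those without WT baseline library 3 or Adcy10-/- baseline library 1 (highest adjusted p = 0.189), with the change itself between 0.16 and 0.22. P4hb went from 185 ± 10.9 to 209 ± 6.27 FPKM (SD, n = 3), a log2 change of 0.18 with an adjusted p of 0.0841, or 0.0134 with the block. Pdia3 and Pdia4 differed by -0.01 (interval -0.10 to 0.08) and 0.02 (interval -0.09 to 0.14).

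The ER chaperones with the largest differences were 2 small secreted or ER-resident stress proteins and calreticulin. Manf, a neurotrophic factor that binds BiP, went from 51.9 ± 5.15 to 61.9 ± 2.65 FPKM (log2 change 0.25, adjusted p = 0.117, 0.0133 with the block). Creld2, an ER protein known to rise in ER stress, went from 41.5 ± 1.65 to 46.9 ± 3.58 FPKM (0.17, adjusted p = 0.385, 0.0384 with the block). Calr went from 520.3 ± 12.8 to 567 ± 9.84 FPKM (0.12, adjusted p = 0.108, 0.0279 with the block). All 3 were higher with cytokines in 3 of 3 same-numbered pairs, and the WT groups did not overlap. The share of all tested genes with these traits in WT cells alone was not counted. In Adcy10-/- cells the groups overlapped for Manf and Creld2 and did not for Calr.

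The central ER chaperones did not pass in either fit. BiP mRNA, Hspa5, read 298, 328 and 354 FPKM in WT baseline and 319, 361 and 358 FPKM with cytokines. Hsp90b1, the ER HSP90, read 181, 189.9 and 211 FPKM at baseline and 193, 206 and 219 FPKM with cytokines. Both overlapped between groups although each same-numbered pair was higher with cytokines. Their log2 changes were 0.08 (interval -0.11 to 0.27) and 0.09 (interval -0.09 to 0.26), with block adjusted p of 0.135 and 0.165. The cochaperones Dnajb9, Dnajb11 and Dnajc3, which help BiP, the lectin chaperone Canx, the BiP exchange factor Hyou1 and the Dnajb11 partner Sdf2l1 differed by -0.08 to 0.10, and none passed.

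In ER-associated degradation, which returns misfolded proteins to the cytosol, none of 4 members passed. Syvn1, the ubiquitin ligase, went from 13.7 ± 0.857 to 15.0 ± 0.444 FPKM (log2 change 0.13, adjusted p = 0.248). Its adaptor Sel1l differed by 0.00, Herpud1 by -0.05, and the glycoprotein recognition factor Edem1 by -0.14 (adjusted p = 0.361). Sec61b, a subunit of the channel through which new proteins enter the ER, went from 205 ± 7.47 to 220.0 ± 5.5 FPKM (0.10, adjusted p = 0.224).

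None of the 6 tested cytosolic chaperones passed in WT cells, with or without the block. Hspa8 read 2194, 2533 and 2712 FPKM at baseline and 2000, 2502 and 2499 FPKM with cytokines, lower in each same-numbered pair and overlapping between groups. Its log2 change was -0.09 (interval -0.33 to 0.15). Hsp90ab1 read 2281, 2465 and 2664 FPKM at baseline and 2185, 2510 and 2545 FPKM with cytokines, a change of -0.03 (interval -0.19 to 0.12). Library 1 was the lowest in all of these groups. Hsph1, Hsp90aa1, Dnaja1 and Dnajb1, the last 2 being HSP40 partners of HSP70, differed by -0.06, -0.03, 0.04 and 0.13.

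The mitochondrial pair was lower on average with cytokines. Hspd1, the HSP60 chaperonin, read 418, 491 and 542 FPKM in WT baseline and 375, 455 and 476 FPKM with cytokines. Each same-numbered pair was lower with cytokines, yet library numbers differed more than media did, and the groups overlapped. The log2 change of -0.15 (SE 0.12, adjusted p = 0.547) passed only with the block (SE 0.04, adjusted p = 0.0402). Hspe1 read 560.2, 606 and 658 FPKM at baseline and 531, 606 and 598 FPKM with cytokines, a change of -0.07 (interval -0.24 to 0.10). RefSeq names 5 pseudogenes of Hspd1 and 6 of Hspe1, and how reads shared with them were assigned is not given in the sources used here.

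Hsf1 read 34.4, 36.1 and 35.3 FPKM in WT baseline and 33.2, 32.7 and 29.9 FPKM with cytokines. With cytokines library 1 was the highest of 3, and the groups did not overlap. The log2 change was -0.14 (SE 0.05, adjusted p = 0.133, 0.0586 with the block) and did not pass.

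**Figure D2:**
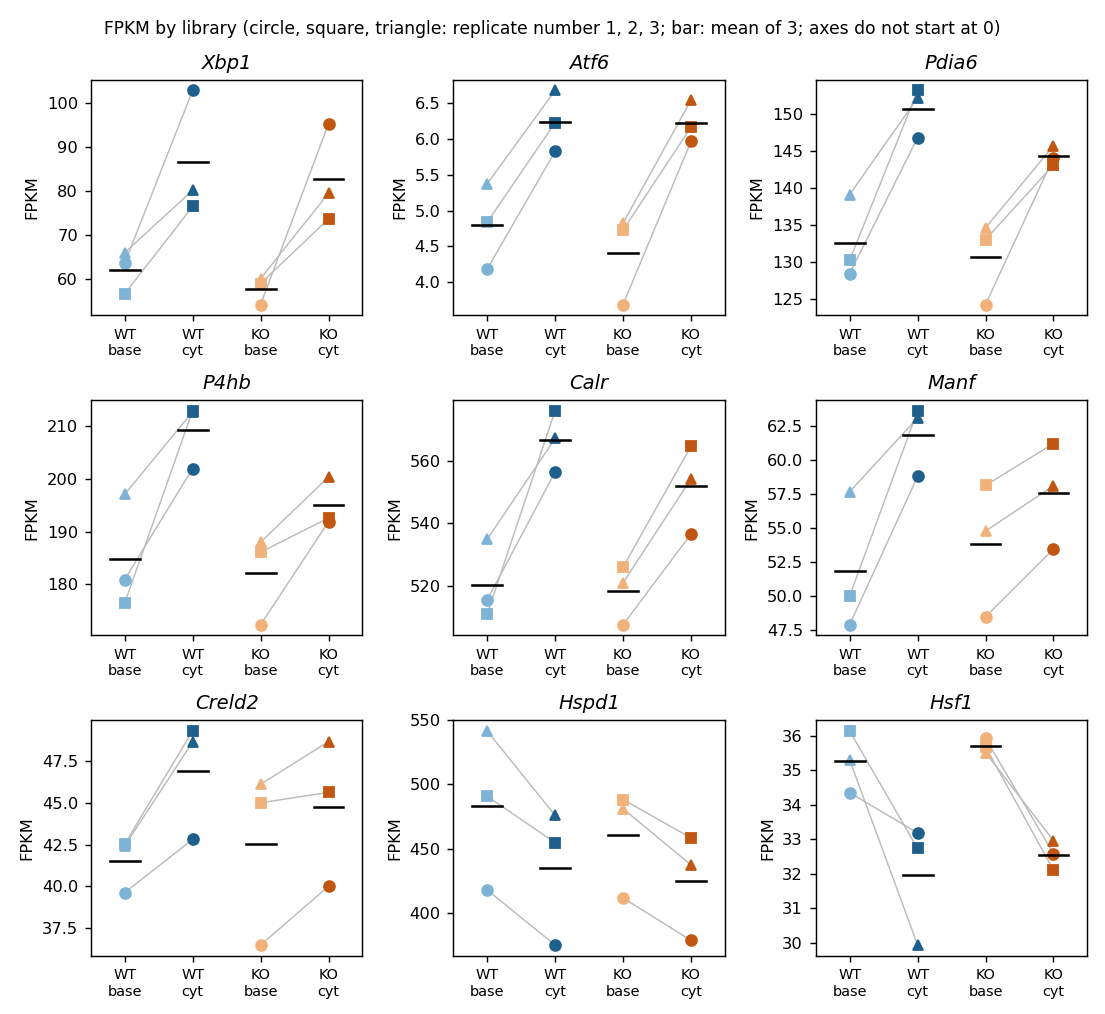
FPKM of 9 members in the 12 libraries, with circles, squares and triangles for replicate numbers 1 to 3, grey lines joining the same number within a genotype, and bars at the mean of 3. Xbp1, Atf6, Pdia6, P4hb and Calr stand higher with cytokines in both genotypes without overlap, Hsf1 stands lower, and library 1 of Hspd1 is the lowest in each group. The axes do not start at 0.

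The same comparison in Adcy10-/- cells gave Xbp1 and Atf6 as the members that rose, and no member that fell, against 2.14% and 2.12% of all tested genes. The median change was 0.03 over members and -0.02 over all tested genes. With the block 3 members rose, Pdia6 being the third, and 0 fell, against 4.74% and 5.98% of all genes. With the block within each genotype Hsp90b1 also rose and Edem1 fell, which made 4 members higher and 1 lower, against 5.41% and 6.37%. Without the 4 libraries numbered 1, 0 members passed, against 1.08% of genes higher and 1.11% lower.

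Xbp1 in Adcy10-/- cells read 54.3, 59.1 and 60.2 FPKM at baseline and 95.2, 73.7 and 79.5 FPKM with cytokines. Again no library overlapped and library 1 with cytokines was the highest. The log2 change was 0.50 (SE 0.12, adjusted p = 0.0329), and 0.36 without the 4 libraries numbered 1, which missed the threshold at an adjusted p of 0.0604. Leaving out any Adcy10-/- baseline library, or Adcy10-/- cytokine library 1 or 3, also ended the call (highest adjusted p = 0.131), with changes of 0.40 to 0.53 in those fits.

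Atf6 read 3.69, 4.73 and 4.83 FPKM at baseline and 5.97, 6.17 and 6.54 FPKM with cytokines in Adcy10-/- cells, without overlap. The log2 change was 0.42 (SE 0.10, adjusted p = 0.0350, 0.00228 with the block), a 1.34-fold rise. The call was lost without the 4 libraries numbered 1 (0.35, adjusted p = 0.0998). It was also lost without library 2 of either WT group, Adcy10-/- baseline library 1 or 3, or any Adcy10-/- cytokine library (highest adjusted p = 0.133).

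Pdia6 read 124, 133 and 135 FPKM at baseline and 144, 143 and 146 FPKM with cytokines in Adcy10-/- cells. Its log2 change of 0.14 (SE 0.05, adjusted p = 0.130) did not pass. It passed with the block (adjusted p = 0.0260) and with quantile normalization. Hspa5 read 280.2, 330.3 and 328 FPKM at baseline and 299, 334 and 348 FPKM with cytokines, a change of 0.06 (interval -0.13 to 0.26). Hsp90b1 read 168, 196 and 192 FPKM, then 188, 208 and 211 FPKM, a change of 0.13 (interval -0.05 to 0.30). The Hspa5 and Hsp90b1 groups overlapped, and the Pdia6 groups did not.

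Cytosolic and mitochondrial genes in Adcy10-/- cells gave no call. Hspa8 read 2193, 2429 and 2553 FPKM at baseline and 1938, 2289 and 2370 FPKM with cytokines (log2 change -0.12, interval -0.37 to 0.12). Hsp90ab1 read 2343, 2431 and 2565 FPKM, then 2230, 2292 and 2387 FPKM (-0.09, interval -0.24 to 0.07). Both were lower in 3 of 3 pairs, with overlapping groups. Hspd1 read 412, 488 and 481 FPKM, then 378, 458 and 437 FPKM (-0.12, interval -0.37 to 0.14). Hspe1 read 572, 609 and 612 FPKM, then 522, 609.6 and 543 FPKM (-0.10, interval -0.27 to 0.07). These 2 mitochondrial genes also overlapped between media. Hsf1 read 35.9, 35.7 and 35.5 FPKM, then 32.6, 32.1 and 33.0 FPKM, a change of -0.13 (SE 0.05, adjusted p = 0.197) without overlap.

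Stress-inducible HSP70 was near the floor of the data. Hspa1a read 0.357, 0.363 and 0.480 FPKM in WT baseline libraries, 0.469, 0.393 and 0.474 in WT with cytokines, 0.578, 0.404 and 0.450 in Adcy10-/- baseline, and 0.246, 0.252 and 0.283 in Adcy10-/- with cytokines. Hspa1b read 0.471, 0.706 and 0.843, then 0.541, 0.537 and 0.608 FPKM in the WT groups, and 0.809, 0.778 and 0.803, then 0.437, 0.395 and 0.490 FPKM in the Adcy10-/- groups. The Adcy10-/- cytokine libraries were lower than the other groups except that Hspa1b overlapped WT baseline library 1. In a fit with no filter on low values, which tested 16728 genes, the cytokine change in Adcy10-/- cells was -0.23 for Hspa1a (adjusted p = 0.0476) and -0.32 for Hspa1b (adjusted p = 0.0507), and both genotype and interaction contrasts had an adjusted p of 1. The 2 genes are near-identical copies, so reads could be split between them, and all values lay under 1 FPKM.

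Set side by side, the cytokine groups lay above baseline without overlap in both genotypes for 7 of the 32 tested members, Calr, Pdia6, P4hb, Syvn1, Atf6, Xbp1 and Sec61b, against 5.51% of all tested genes. All 7 belong to the ER class, which holds 23 of the 32 tested members and includes the factor Xbp1. Hsf1 was the 1 member below baseline without overlap in both, against 5.73% of all genes. The 10 tested ER members with an ER stress element of either type had a median log2 change of 0.09 in WT and 0.07 in Adcy10-/- cells, and the other 10 ER members with a window had 0.07 and 0.03. Of the genes with a stretch printed above, Pdia6 passed in WT cells, and Hspa5, Hsp90b1, Calr, Creld2, Herpud1, Hspd1 and Hspe1 did not. Calr, Creld2 and Hspd1 passed there with the block.

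**Figure D3:**
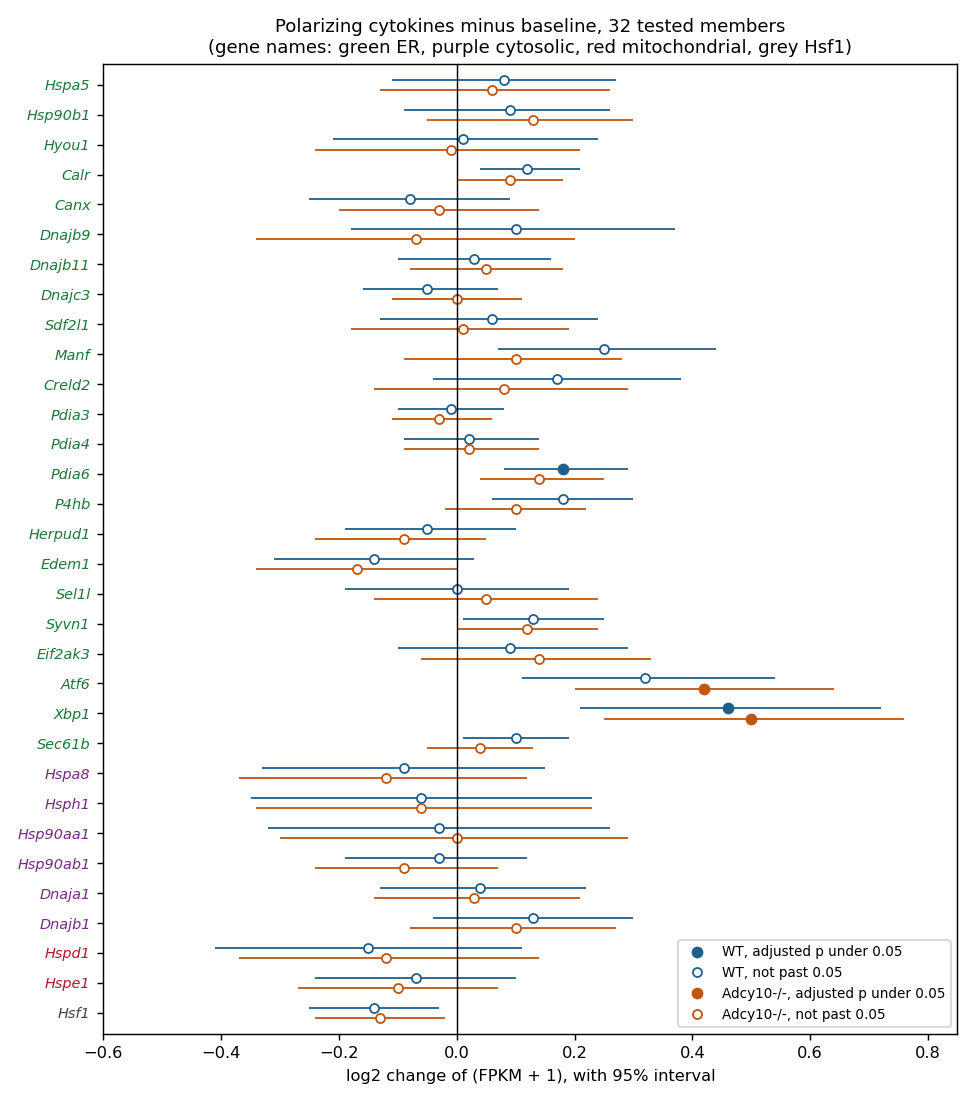
Change with cytokines for the 32 tested members, as the log2 change of FPKM + 1 with its 95% interval, WT in blue and Adcy10-/- in orange, filled where the adjusted p was under 0.05. Xbp1 is at 0.46 and 0.50 and Atf6 at 0.32 and 0.42, the intervals of cytosolic and mitochondrial genes span 0, and those of Hsf1 lie below 0.

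ER members were then set against cytosolic and mitochondrial ones within each library, as the mean log2(FPKM + 1) of 23, 6 and 2 tested members. The ER mean holds sensors and factors as well as chaperones. Xbp1 and Atf6, the members with the largest cytokine changes in both genotypes, are among them, and Hsf1 is in none of these means. The part of Xbp1 and Atf6 in the shifts below was not tested. In WT cells the ER mean went from 5.72 ± 0.063 to 5.81 ± 0.029 with cytokines, while the cytosolic mean was 8.08 ± 0.140 and 8.07 ± 0.158 and the mitochondrial mean 9.08 ± 0.152 and 8.97 ± 0.143 (SD, n = 3). In Adcy10-/- cells the ER mean was 5.70 ± 0.067 and 5.77 ± 0.037, the cytosolic mean 8.03 ± 0.124 and 8.01 ± 0.112, and the mitochondrial mean 9.04 ± 0.096 and 8.93 ± 0.125.

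The ER mean minus the cytosolic mean was higher with cytokines by 0.098 in WT cells, with same-numbered pairs at 0.168, 0.041 and 0.085, and by 0.095 in Adcy10-/- cells, with pairs at 0.133, 0.047 and 0.106. All 6 pairs shared the direction, but the groups overlapped in both genotypes, and the pooled SD between libraries was 0.111 and 0.074. Against the mitochondrial mean the shift was 0.202 in WT (pairs 0.242, 0.145 and 0.220) and 0.181 in Adcy10-/- cells (pairs 0.246, 0.072 and 0.224). Here the groups did not overlap in either genotype, and the shifts exceeded the SD of 0.108 and 0.089. The mitochondrial mean rests on 2 genes, Hspd1 and Hspe1. In the wider lists described below, 20 other mitochondrial chaperones and proteases had median changes of -0.00 in WT and -0.03 in Adcy10-/- cells. The wider ER lists, leaving aside the PERK-ATF4 arm, had medians of 0.03 to 0.08 and 0.01 to 0.04. No test was run on the class means because the members were chosen with earlier results known.

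**Figure D4:**
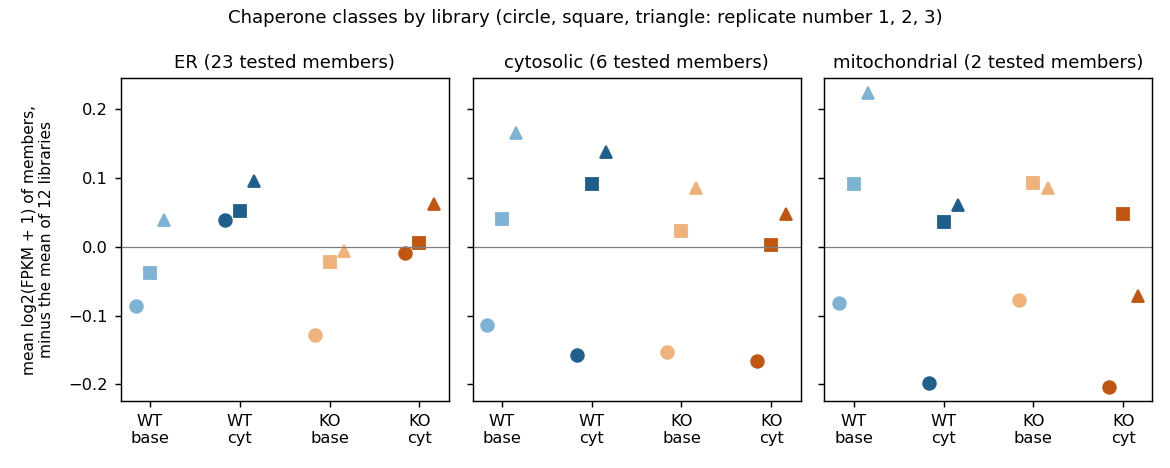
Mean log2(FPKM + 1) of the tested ER, cytosolic and mitochondrial members in each library, less its mean over the 12 libraries, with circles, squares and triangles for replicate numbers 1 to 3. Cytosolic and mitochondrial circles are the lowest point of every group, and the ER points stand higher with cytokines in each same-numbered pair.

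Levels of these genes differed by library number as well as by medium. In all 4 groups the library numbered 1 was the lowest of 3 for 17 of the 32 tested members (53.1%), against 16.2% of all tested genes. These included 6 of 6 cytosolic members, 2 of 2 mitochondrial members and 7 of 11 ER chaperones. The median difference of library 1 from the mean of the other 2 was -0.21 for cytosolic and for mitochondrial members, -0.08 for ER members and -0.02 for all tested genes on the log2 scale. Dnajb9, an HSP40 cochaperone of BiP, went the other way, at 0.24, and Xbp1 with cytokines did too, at 0.39 in WT and 0.31 in Adcy10-/- cells.

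Markers of B and plasma cells and of CD4 T cells moved with the number. The summed FPKM of B and plasma cell markers was 6.39 to 15.1 in libraries numbered 1 and 38.9 to 63.6 in the others, and that of CD4 T cell markers was 1630 to 1820 against 1420 to 1580. The macrophage and monocyte sum of library 1 was the highest of its group in WT cells (66.1 at baseline, 104 with cytokines). In Adcy10-/- cells it was the lowest (15.5 and 21.5). For the other cell types looked at, libraries numbered 1 overlapped the others. Of 13 B and plasma cell markers listed, 12 were in the files and 9 passed the filter. Their sum was 6.39 to 63.6 in WT baseline, 9.04 to 56.3 in WT with cytokines, 12.8 to 42.7 in Adcy10-/- baseline and 15.1 to 44.7 in Adcy10-/- with cytokines. Pax5, which defines B cells, ranged from 0 to 6.36 FPKM, and Tnfrsf17, which marks plasma cells, from 0 to 0.114. Others of the same list ranged higher, Mzb1 from 0.465 to 13.1 FPKM, Igj from 1.02 to 8.49 and Sdc1 from 0.845 to 1.42. Derl3 ranged from 0.215 to 0.573 FPKM. The part of these cells in the chaperone levels was not tested, and a change in the number of cells of a type cannot be told apart from a change in RNA per cell.

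Sums of 6 macrophage and monocyte markers were 20.3 to 66.1 FPKM in WT baseline and 29.3 to 104 with cytokines, and 15.5 to 20.5 and 21.5 to 28.3 in Adcy10-/- cells. Those of 4 neutrophil markers were 5.11 to 19.3, 11.7 to 60.2, 1.21 to 5.57 and 0.911 to 15.6 in the same order. Lyz2 gave most of the first sum, at 11.8 to 93.5 FPKM, and their part in the cytokine differences was not tested. Summed markers were 0.617 to 2.54 FPKM for dendritic, 0.07 to 0.482 for NK, 8.43 to 14.7 for CD8 T and 0.443 to 131 for red cells. Cd4 itself read 119 to 179 FPKM and Cd3e 169 to 260 over the 12 libraries. The 12 libraries summed to 547870 to 594750 FPKM, with 9778 to 9925 genes at 1 FPKM or more, and read depth is unknown. Every library listed Adcy10 at 0 FPKM, so these values do not check the genotype labels.

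The second question was whether Adcy10 loss changed the members. No member passed in baseline medium, with cytokines, averaged over both media, or for the difference between genotypes in the cytokine change. These fits called 0% of all tested genes, and also 0% with the block for the comparison with cytokines. At an unadjusted p under 0.05 they held 118, 202, 180 and 112 genes in that order, and 0 members in each. With the block, 2 of 32 members had an unadjusted p under 0.05 in the comparison with cytokines, against 5.09% of all genes, so their share was near the background. Averaged over both media, 5 of 32 members did with the block, all lower in Adcy10-/- cells, against 560 of the 10126 tested genes. That fit called 3 genes at an adjusted p under 0.05, all lower, and 0 members.

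At baseline the differences of Adcy10-/- from WT ran from -0.12 for Eif2ak3 to 0.06 for Syvn1, with intervals between -0.38 and 0.27. With cytokines they ran from -0.17 for Dnajb9 to 0.05 for Syvn1, with intervals between -0.44 and 0.24, or between -0.34 and 0.17 with the block. Of the 32, 28 lay below 0 with cytokines, with a median of -0.04 against -0.01 for all tested genes. The intervals therefore leave room for differences of this size in either direction and do not show equal levels.

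With cytokines, the Adcy10-/- libraries lay below all WT libraries for 4 tested members, Pdia3, Pdia6, P4hb and Sec61b, against 3.4% of all tested genes, and above them for 0, against 1.68%. Pdia6 averaged 144 ± 1.34 FPKM in Adcy10-/- and 151 ± 3.43 in WT cells, and P4hb 195 ± 4.72 against 209 ± 6.27 (SD, n = 3). Their log2 differences were -0.06 (interval -0.17 to 0.04) and -0.10 (interval -0.22 to 0.02), each with an adjusted p of 1. With the block the interval of Pdia6 was -0.14 to 0.02 (adjusted p = 0.959). That of P4hb was -0.19 to -0.02, which leaves out 0, and it did not pass (adjusted p = 0.914). Sec61b averaged 212 ± 0.572 against 220.0 ± 5.5 FPKM, and Pdia3 256 ± 2.54 against 262 ± 2.20 FPKM. At baseline Dnajc3 was the member below WT without overlap, at 17.8 ± 0.636 against 18.6 ± 0.193 FPKM. The share of all tested genes was not counted for the baseline comparison, so Dnajc3 cannot be set against a background.

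The cytokine change of Xbp1 was larger in Adcy10-/- than in WT cells by 0.04 (interval -0.32 to 0.40) and that of Atf6 by 0.10 (interval -0.21 to 0.41). For Pdia6 it was smaller, at -0.04 (interval -0.19 to 0.10), and for Manf at -0.16 (interval -0.42 to 0.11). A call in 1 genotype and not in the other was therefore not shown to be a difference between them for Atf6 or Pdia6. Over the members these differences ran from -0.17 for Dnajb9 to 0.10 for Atf6, with a median of -0.02 against -0.01 for all tested genes.

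**Figure D5:**
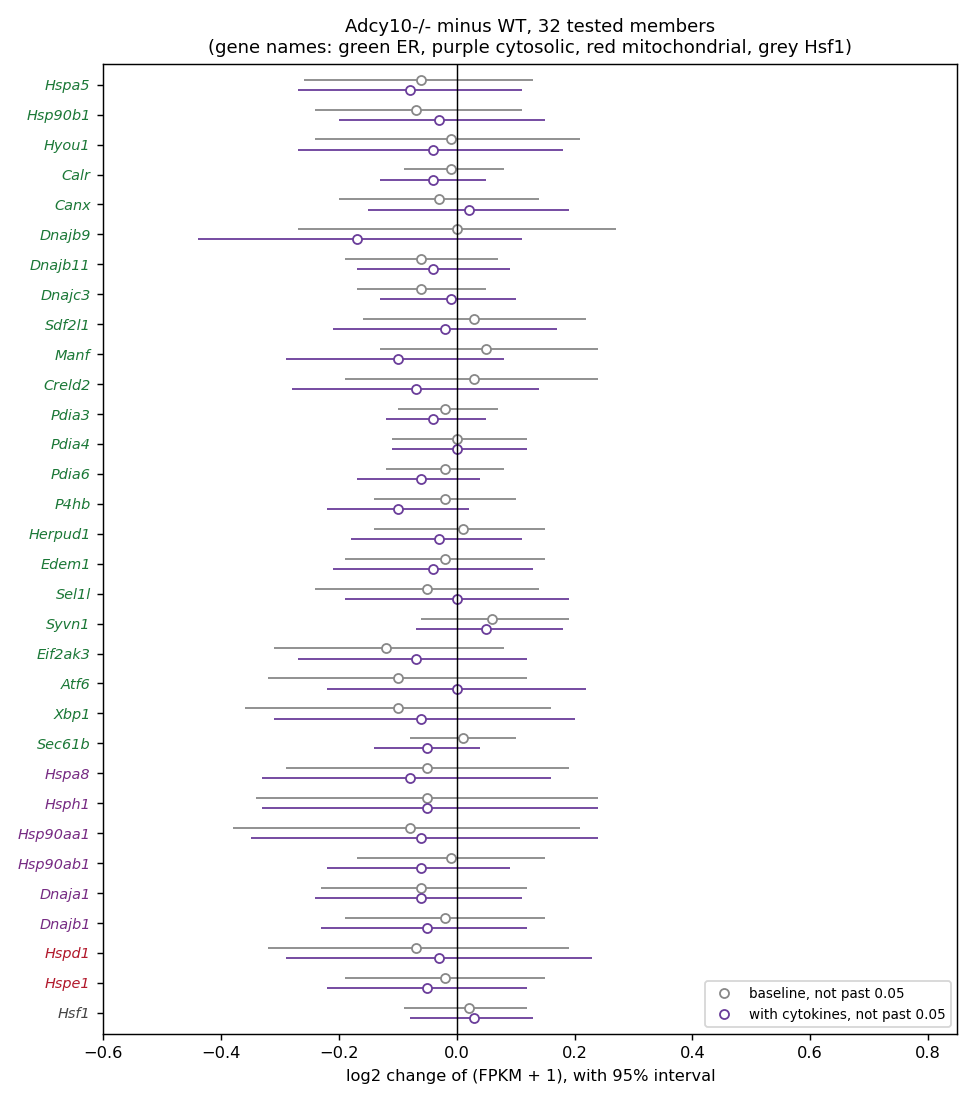
Adcy10-/- minus WT for the 32 tested members, as the log2 difference of FPKM + 1 with its 95% interval, baseline in grey and with cytokines in purple. No member passed an adjusted p of 0.05, every interval spans 0, and 28 of the 32 purple points lie below 0.

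Other genes of the same pathways, in lists written from general knowledge, were counted in the same fits, without the block unless it is named, and the shares of all genes given above apply. In the PERK-ATF4 arm, which slows translation and drives stress genes, 2 of 16 tested genes rose and 1 fell in WT cells, with a median of 0.13. Ddit4, an inhibitor of mTOR, read 19.01, 17.7 and 19.8 FPKM at baseline and 24.2, 27.9 and 26.95 FPKM with cytokines (log2 change 0.46, adjusted p = 0.00469). Ddit3, which encodes CHOP, read 7.795, 5.83 and 5.499, then 10.4, 9.23 and 9.71 FPKM (0.56, adjusted p = 0.0206). Atf3, a stress-induced repressor, read 8.27, 10.1 and 11.2, then 6.10, 4.51 and 5.85 FPKM (-0.74, adjusted p = 0.0154). None of the 3 overlapped between media. In Adcy10-/- cells Ddit4 rose (0.46, adjusted p = 0.00485), Atf3 fell (-0.86, adjusted p = 0.00752), and the median of the list was 0.00. With the block 6 genes of this arm rose in WT cells, Atf5, Cebpb, Nupr1 and Sesn2 besides these, and Atf3 fell, and 2 rose, Ddit3 besides Ddit4, and 1 fell in Adcy10-/- cells.

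Creb3l2, a relative of Atf6 that controls secretory capacity, was the 1 gene of 10 further ER stress transducers that rose. It read 2.03, 1.80 and 2.33 FPKM in WT baseline and 4.64, 3.16 and 4.21 FPKM with cytokines (log2 change 0.70, adjusted p = 0.0123), and its change in Adcy10-/- cells was 0.64 (adjusted p = 0.0217). In ER-associated degradation beyond the members, 2 of 23 genes rose in WT cells and 1 in Adcy10-/- cells. Ubac2, an ER membrane protein of that pathway, changed by 0.55 (adjusted p = 0.00169) and 0.38 (adjusted p = 0.0123) in the 2 genotypes, and Selk by 0.23 (adjusted p = 0.0483) in WT cells. With the block, the transducer Map3k5 also rose in Adcy10-/- cells and the degradation gene Vimp in WT cells.

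A few genes for entry into, folding in and exit from the ER passed in WT cells without the block, and a few in each genotype with it. Of all tested genes, 2.65% rose in WT cells without the block, and 7.41% in WT and 4.74% in Adcy10-/- cells with it. The difference between genotypes passed for none of the listed genes. Of 30 translocon, signal peptidase and oligosaccharyltransferase genes 3 rose, Krtcap2 by 0.33 (adjusted p = 0.00973), Ddost by 0.21 (0.0169) and Ssr2 by 0.18 (0.0313), of which the first 2 are subunits of the enzyme that attaches glycans. Of 26 other ER folding enzymes 1 rose, the prolyl isomerase Ppib (0.25, adjusted p = 0.0137), and of 26 ER exit and Golgi traffic genes 1 rose, the cargo receptor Surf4 (0.19, adjusted p = 0.0335). In Adcy10-/- cells 0 genes of these 3 lists passed without the block. The smallest p-values of the 3 lists belonged to Krtcap2 (0.18, adjusted p = 0.136) and Tram1 (0.25, 0.174), to Ppib (0.14, 0.169) and Uggt1 (0.15, 0.330), and to Sec24d (0.31, 0.0854) and Surf4 (0.13, 0.168). With the block, Krtcap2 (adjusted p = 0.0447), Tram1 (0.0104), Ppib (0.0357) and Sec24d (0.0298) rose in these cells, and Prdx4, Cope and Sec13 joined the genes that rose in WT cells.

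Beyond the ER, 1 of 34 genes passed in a list of cytosolic chaperones, cochaperones and heat shock factors, and it is not a chaperone. Hsf2, a second heat shock factor, read 10.2, 9.32 and 9.93 FPKM in WT baseline and 7.71, 7.11 and 8.37 FPKM with cytokines (log2 change -0.31, adjusted p = 0.0387), and fell in Adcy10-/- cells as well (-0.32, adjusted p = 0.0324). Of 14 genes of the CCT chaperonin and prefoldin, which fold actin and tubulin, and of 20 mitochondrial chaperones and proteases, 0 passed in either genotype. For the first list the smallest p-values were those of Vbp1 (-0.21, adjusted p = 0.124) and Pfdn1 (0.11, 0.423) in WT cells, and of Pdcl3 (-0.10, 0.521) and Vbp1 (-0.08, 0.728) in Adcy10-/- cells. For the second they were those of Atf5 (0.33, adjusted p = 0.0738) and Dnajc19 (0.11, 0.331) in WT cells, and of Atf5 (0.21, 0.306) and Phb (-0.09, 0.594) in Adcy10-/- cells. With the block Atf5, a stress-responsive transcription factor, rose in WT cells (adjusted p = 0.0250). In that fit 1 of the 34 cytosolic genes, Bag3, rose in WT cells and 4 fell, Cacybp, Hspa4 and Hspb11 besides Hsf2, and Hsf2 was the 1 gene called in Adcy10-/- cells. Genes of the wider lists named for the block alone were chosen after their values were seen.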

How the data were processed

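Polyadenylated RNA was sequenced from 12 libraries, 3 in each of 4 groups, and the authors deposited FPKM per gene. The submitters' processing notes name the mm9 genome, STAR 2.4.0f1, SAMtools 0.1.19, Cufflinks and HTSeq. Each table held 24488 entries for 23991 names, and repeated names were summed. Read depth is unknown, so precision rests on the spread between libraries. Values were analysed as log2(FPKM + 1), which understates changes of low genes, for the 10126 genes that reached 1 FPKM in 3 or more libraries. The model was of group means, in limma 3.58.1 under R 4.3.3 (empirical Bayes with trend, all 12 libraries), with Benjamini-Hochberg adjustment over all tested genes, a threshold of 0.05 and 95% intervals. The fitting code was tested on simulated data. Python 3.11.15 made the tables and figures.

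Members, lists and tests were chosen with earlier results of these data known. Values of every library are given for members that passed in any contrast and for Xbp1, Hspa5, Hsp90b1, Hspa8, Hsp90ab1, Hspa1a, Hspa1b, Hspd1, Hspe1 and Hsf1. Of each wider list up to 4 genes that passed are named, or, where none passed in a genotype, those with the 2 smallest p-values; Ddit3 in Adcy10-/- cells is named beside its WT value. Other members are named because they are members.

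Replicate numbers come from the sample labels. Residuals of same-numbered libraries correlated at 0.294 to 0.536 between media in WT cells, 0.401 to 0.532 in Adcy10-/- cells and 0.262 to 0.422 between genotypes with cytokines. Between genotypes at baseline 1 pair was at 0.074. The block is therefore given for the cytokine change in each genotype and for the genotypes compared with cytokines. Its counts for the genotypes averaged over media are given as well, although the baseline pairs enter that average. Alternatives were a pseudocount of 0.1, no filter, a mean of at least 5 FPKM, median-ratio scaling, quantile normalization, a fit of only the groups compared, the block, and leaving out each library. Promoter windows of RefSeq were searched by letters.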

Additional observations from a re-analysis of the deposited data

How the results depend on the processing

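The cytokine calls sat close to the threshold, while the directions of the changes of Xbp1, Atf6 and Pdia6 were kept in every fit run. In WT cells 2 members passed, but 1 did with no filter, 1 with a mean of at least 5 FPKM, 1 with quantile normalization, 0 in the fit of only the groups compared, and between 0 and 3 with 1 library left out. In Adcy10-/- cells 2 members passed, but 1 did with no filter (Hspa1a, lower), 1 in the fit of only the groups compared, and between 0 and 2 with 1 library left out. With quantile normalization 3 passed there, Pdia6 being the third. With the replicate block 8 members passed in WT cells and 3 in Adcy10-/- cells, and the block changed no genotype or interaction call of a member. Chosen after seeing the data, the block within genotype gave 8 and 5 members, and leaving out the 4 libraries numbered 1 gave 1 and 0. All genes moved as well, from 499 and 432 called to 1502 and 1086 with the block, 1574 and 1193 with the block within genotype, and 374 and 219 without the libraries numbered 1. With no filter 376 and 320 of 16728 genes were called, and 275 and 314 of 10126 in the fit of only the groups compared. Quantile normalization called 499 and 431, and a mean of at least 5 FPKM 361 and 347 of 7261. With 1 library left out, 164 to 536 genes were called in WT and 202 to 466 in Adcy10-/- cells. The causes of these differences were not tested. With 1 library left out, changes that had not passed ranged from -0.18 to 0.02 for Hspa8 and -0.09 to 0.04 for Hsp90ab1 in WT cells, and from -0.01 to 0.13 for Hspa5 in Adcy10-/- cells. The sign turned for Hspa8 without WT cytokine library 1 (0.02), for Hsp90ab1 without WT baseline library 3 (0.02) or WT cytokine library 1 (0.04), and for Hspa5 without Adcy10-/- baseline library 1 (-0.01). The ER shifts against cytosolic and mitochondrial members stayed above 0, at 0.019 to 0.142 and 0.132 to 0.253 in WT cells and 0.046 to 0.126 and 0.131 to 0.249 in Adcy10-/- cells with 1 library left out. Genotype and interaction contrasts gave 0 members under every alternative run. FPKM keeps no depth, so changes of Ern1, Hspa1a and Hspa1b, near or under 1 FPKM, cannot be separated from counting error.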
